A study of Mus musculus with 8 samples.

Results

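A set of 8 transcripts of the proximal tubule, the segment of the nephron that follows the glomerulus, were followed through sorted glomerular cells: Gpx3, Miox, Kap, Lrp2, Cubn, Aqp1, Fbp1 and Ass1. They were taken by symbol from the gene lines of the count table that held a count for all 8 libraries, and all 8 were found there, out of 17326 such genes. All 8 also passed edgeR's filter on low counts, with 16477 genes tested in all. Each of the 8 is described below.

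The proximal tubule takes back most of what the glomerulus filters. Its cells carry a brush border, take up filtered protein by endocytosis through megalin and cubilin, make glucose and arginine, and pass water through channels in both of their faces. Podocytes wrap the outside of the glomerular capillaries, glomerular endothelium lines them, and neither cell type is known as a main source of most of these 8 transcripts, although Aqp1 is also made by some endothelial cells of the kidney and Cubn and Lrp2 have been described in podocytes. Members were therefore read as levels of tubule-type RNA in each sorted library. Whether that RNA came from tubule cells, from free RNA or from the sorted cells themselves was not tested.

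The study used polyadenylated RNA from mouse kidney cells sorted by fluorescence, as endothelium or podocyte, from EMCN+/+ animals (wild type) and EMCN-/- animals (knockout). EMCN is endomucin, a sialomucin on the endothelial surface. Each of the 4 groups (wild-type endothelium, knockout endothelium, wild-type podocytes, knockout podocytes) had 2 libraries, numbered 2 and 3 in the labels. The knockout libraries of both cell types come from EMCN-/- kidneys, and the labels used here name no Cre or cell-type-limited allele, and give no age, sex, sorting markers or number of animals per library. The p-values measure only the spread between these libraries, since the labels do not say that replicates are separate animals.

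Depth on the complete gene lines ran from 10478956 to 17386042 counts, and mitochondrial genes took 10.1% to 26.2% of them. Emcn had 25953 and 25261 counts in wild-type endothelium, 2460 and 2081 in knockout endothelium, 1143 and 495 in wild-type podocytes and 90 and 67 in knockout podocytes, so the genotype labels held in both cell types. Of 12 podocyte markers on complete lines, 12 were higher in podocytes, and of 18 endothelial markers, 17 were higher in endothelium and Cldn5 was lower there (edgeR's quasi-likelihood test, adjusted p under 0.05). The summed podocyte markers reached 12012 to 24205 CPM (counts scaled to a common library size) in podocyte libraries and 3145 to 4705 CPM in endothelial ones, with knockout podocytes replicate 2 the lowest of the podocyte libraries.

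The members lie on 5 chromosomes of the GRCm38 build. Their RefSeq gene bodies are Gpx3 (chr11:54902854-54910387), Miox (chr15:89334473-89337007), Kap (chr6:133849855-133853667), Lrp2 (chr2:69424335-69586029), Cubn (chr2:13276338-13491876), Aqp1 (chr6:55336299-55348555), Fbp1 (chr13:62864753-62888298) and Ass1 (chr2:31470270-31520670). Cubn overlaps the predicted genes Gm13270 and LOC115489436, and Fbp1 overlaps Gm38679, so reads in those stretches could not be assigned with certainty. The sequences just upstream are shown for 3 members whose levels behave differently below: Miox and Gpx3, which differed between the cell types, and Kap, which did not. Each is the 250 bases before the RefSeq start site (GRCm38.p6), written 5′ to 3′ on the gene's strand, with capitals marking matches on either strand to the core promoter element TATAAA or to a half-site of nuclear receptors, which is AGGTCA.
Miox, chr15:89334223-89334472, plus strand: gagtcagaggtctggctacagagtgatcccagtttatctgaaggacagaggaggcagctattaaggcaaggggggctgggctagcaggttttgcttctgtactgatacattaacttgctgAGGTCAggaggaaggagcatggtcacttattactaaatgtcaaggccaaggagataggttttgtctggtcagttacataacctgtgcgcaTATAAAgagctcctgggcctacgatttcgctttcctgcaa
Gpx3, chr11:54902604-54902853, plus strand: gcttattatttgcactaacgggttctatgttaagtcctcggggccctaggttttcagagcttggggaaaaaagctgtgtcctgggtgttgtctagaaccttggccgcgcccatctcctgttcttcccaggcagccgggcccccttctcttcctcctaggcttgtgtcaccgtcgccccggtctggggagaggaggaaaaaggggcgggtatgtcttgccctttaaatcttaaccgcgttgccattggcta
Kap, chr6:133853668-133853917, minus strand: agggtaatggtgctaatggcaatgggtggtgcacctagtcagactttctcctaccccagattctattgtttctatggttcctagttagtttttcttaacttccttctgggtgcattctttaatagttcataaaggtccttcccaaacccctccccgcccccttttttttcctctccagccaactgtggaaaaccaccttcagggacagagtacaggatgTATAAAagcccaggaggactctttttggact

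The Miox window held TATAAA with its first base at -40 from the start site and AGGTCA at -130. Kap held TATAAA at -31, and the Gpx3 window held none of the motifs. TATAAA was present in 2 of the 8 member windows (Kap and Miox) and in 12.4% of 32851 windows of the same length. The nuclear receptor half-site was in 1 of 8, Miox, and in 14.0% of all windows. A consensus site of HNF4, a factor of tubule and liver cells, was in none of the 8 and in 0.384% of all windows. These matches describe letters in a window and say nothing of binding.

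Levels between genes were compared per length, as mean CPM per kilobase of exon over the 8 libraries. Gpx3 led with 1840 CPM per kilobase, followed by Miox at 165, Aqp1 at 152 and Fbp1 at 67.6. Knockout podocytes replicate 2 raised these means, with 5872 for Gpx3, 733 for Miox, 413 for Aqp1 and 256 for Fbp1. The order of the middle pair depended on cell type: Aqp1 was at 112 and Miox at 28.4 in endothelium, against 192 and 301 in podocytes. The remaining 4 were far lower on this scale: Ass1 at 4.79, Lrp2 at 4.40, Cubn at 2.12 and Kap at 1.34. Gpx3 alone gave between 57.0% and 86.5% of the summed member counts of a library. Miox and Aqp1, and likewise Ass1 and Lrp2, stood closer to each other than the spread of either over the libraries, and Kap, known as a very abundant androgen-driven transcript of the tubule, had 1 to 21 counts per library.

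**Figure D1:**
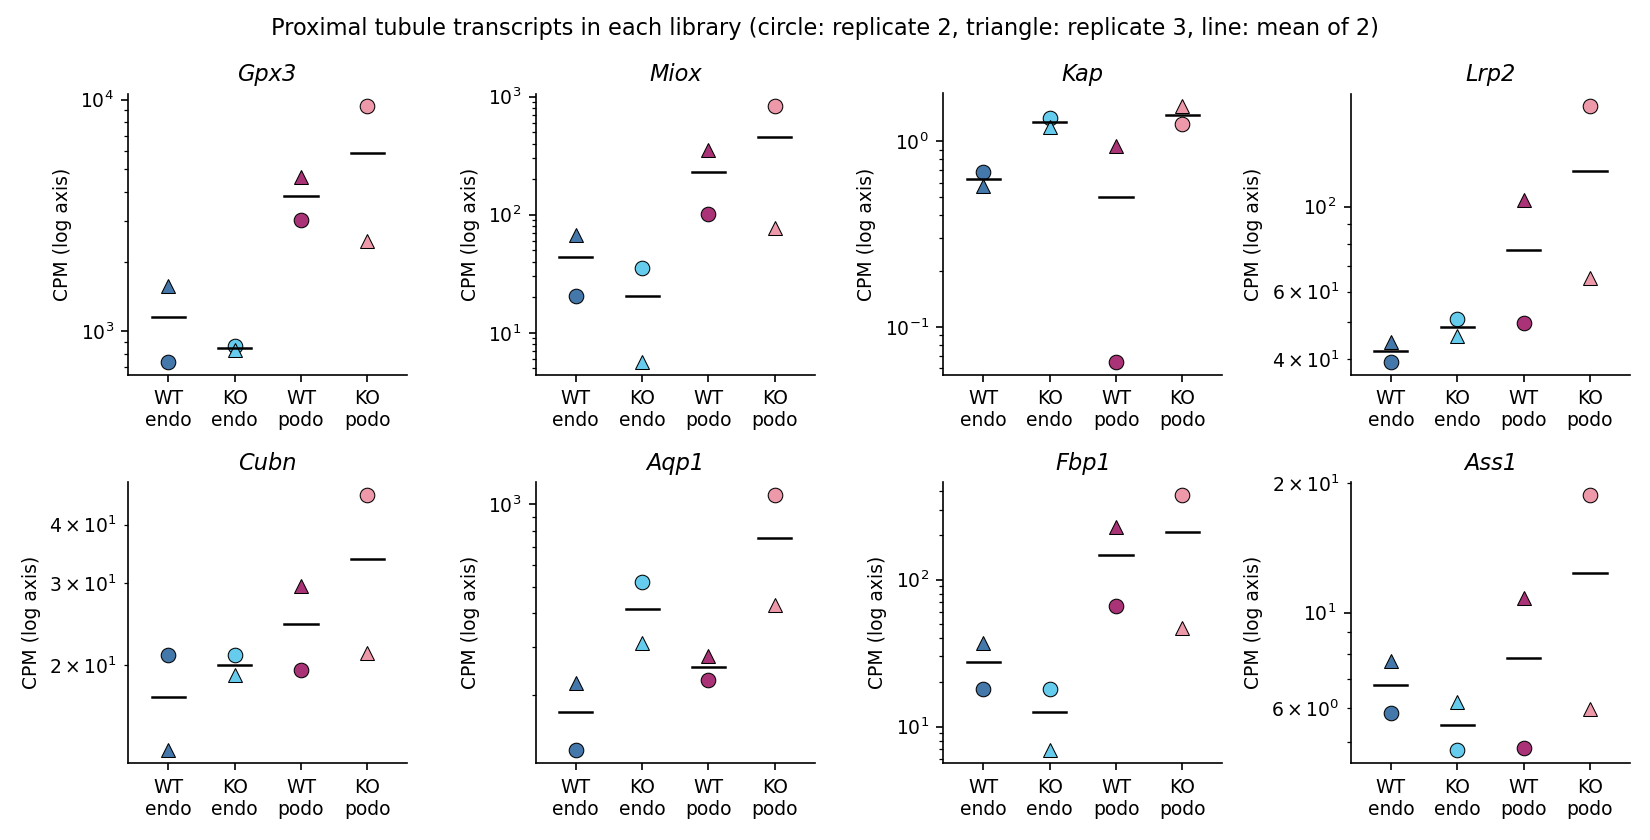
Level of each member in the 8 libraries, as CPM on a log axis. Groups are wild-type (WT) and knockout (KO) endothelium (endo) and podocytes (podo), circles are replicate 2, triangles are replicate 3 and lines are the mean of 2. Knockout podocytes replicate 2 is the highest library for 7 of the 8 members, and Kap is highest in knockout podocytes replicate 3.

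The first comparison asked whether the tubule transcripts differ between the 2 sorted cell types. In all, 4 members were higher in podocytes over both genotypes: Miox 10.7-fold, Fbp1 9.51-fold, Gpx3 4.82-fold and Lrp2 2.17-fold. Cubn, Aqp1 and Ass1 had differences in the same direction that did not pass the test, and Kap differed by far less than its SE. These 4 of 8 compare with 11.1% of all genes tested that were higher in podocytes by the same rule, and 18.3% that differed in either direction. The median difference of the 8 members, endothelium minus podocytes, was -0.91 on the log2 scale, and 0.00 over all genes tested. In bulk samples such as these, fewer cells of a type and less RNA per cell cannot be told apart. Values are given below for replicate 2 first and replicate 3 second.

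Gpx3 encodes the secreted glutathione peroxidase of plasma, which the tubule supplies. Its level was 739 and 1564 CPM in wild-type endothelium, 861 and 830.4 CPM in knockout endothelium, 3010.0 and 4657 CPM in wild-type podocytes, and 9359.6 and 2447 CPM in knockout podocytes. Every podocyte library lay above every endothelial library, and the highest was 12.7 times the lowest. The mean was 999 ± 380.4 CPM in endothelium and 4868 ± 3138 CPM in podocytes (SD, n = 4 each), a log2 difference of -2.27 (SE 0.41, edgeR adjusted p = 0.00299). Without knockout podocytes replicate 2 the difference was -1.64 (edgeR adjusted p = 0.00336).

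Miox, the myo-inositol oxygenase that starts inositol breakdown in the tubule, varied most among the members. Wild-type endothelium held 20.5 and 66.9 CPM, knockout endothelium 35.4 and 5.67 CPM, wild-type podocytes 101 and 355 CPM, and knockout podocytes 829 and 76.6 CPM. The podocyte libraries again lay above all endothelial ones, though knockout podocytes replicate 3 exceeded wild-type endothelium replicate 3 by little, and the highest library was 146 times the lowest. The log2 difference was -3.42 (SE 0.80, edgeR adjusted p = 0.0128). It became -2.14 (adjusted p = 0.0420) without knockout podocytes replicate 2, and missed the threshold without wild-type endothelium replicate 2 (adjusted p = 0.0528).

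Fbp1, the fructose bisphosphatase of gluconeogenesis, followed Miox closely. It had 18 and 37.3 CPM in wild-type endothelium, 18 and 6.88 CPM in knockout endothelium, 65.7 and 229 CPM in wild-type podocytes, and 379 and 47.0 CPM in knockout podocytes. No podocyte library reached down to the endothelial range. The log2 difference was -3.25 (SE 0.64, edgeR adjusted p = 0.00504), and -2.16 (adjusted p = 0.00874) without knockout podocytes replicate 2. Gpx3, Miox and Fbp1 were thus the 3 of 8 members whose cell types did not overlap, a pattern found in 12.3% of all genes tested.

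The endocytic receptors differed less. Lrp2 encodes megalin, the large scavenger receptor of the brush border. Its level was 39.3 and 44.4 CPM in wild-type endothelium, 50.9 and 46.0 CPM in knockout endothelium, 49.7 and 104 CPM in wild-type podocytes, and 183 and 65.2 CPM in knockout podocytes. Wild-type podocytes replicate 2 fell inside the endothelial range and the other 3 podocyte libraries lay above it. The log2 difference of -1.12 (SE 0.32, edgeR adjusted p = 0.0333) was lost in 6 of the 8 fits without 1 library, all but those without wild-type podocytes replicate 2 or knockout podocytes replicate 3, with adjusted p up to 0.129. It was also lost with library size only (0.0926), with genes of at least 5 CPM on average (0.0707) and with the replicate number as a block and the podocyte numbers swapped (0.0620).

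Cubn encodes cubilin, the partner of megalin that binds albumin and intrinsic factor-vitamin B12. Its 8 libraries read 21.0 and 13.2 CPM (wild-type endothelium), 21.1 and 19.1 CPM (knockout endothelium), 19.6 and 29.6 CPM (wild-type podocytes) and 46.3 and 21.3 CPM (knockout podocytes). The groups overlapped, with 1 podocyte library below 2 of the endothelial ones. The log2 difference was -0.64 (SE 0.28, edgeR adjusted p = 0.154), and it was -0.87 (adjusted p = 0.0306) without knockout podocytes replicate 3 and -0.31 (adjusted p = 0.531) without knockout podocytes replicate 2.

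Aqp1, the water channel of both tubule faces, had 126 and 221 CPM in wild-type endothelium and 518 and 311 CPM in knockout endothelium. In podocytes it had 228 and 279 CPM (wild type) and 1084 and 428 CPM (knockout). Its order followed genotype rather than cell type: the 4 knockout libraries were all above the 4 wild-type ones, and the cell types overlapped. The difference between cell types was -0.71 on the log2 scale (SE 0.31, edgeR adjusted p = 0.153), and it was -0.97 (adjusted p = 0.0238) without knockout podocytes replicate 3 and -0.30 (adjusted p = 0.549) without knockout podocytes replicate 2.

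Ass1, the argininosuccinate synthase of arginine synthesis, had 5.85 and 7.74 CPM in wild-type endothelium, 4.79 and 6.19 CPM in knockout endothelium, 4.86 and 10.8 CPM in wild-type podocytes, and 18.8 and 5.97 CPM in knockout podocytes. Replicate 3 of wild-type podocytes and replicate 2 of knockout podocytes were high, and the other 2 podocyte libraries lay within the endothelial range. The log2 difference was -0.69 (SE 0.40, edgeR adjusted p = 0.293).

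Kap, the kidney androgen-regulated protein, was close to the counting floor, with 9 and 8 counts in wild-type endothelium, 19 and 14 in knockout endothelium, 1 and 13 in wild-type podocytes, and 20 and 21 in knockout podocytes. As levels these were between 0.0648 and 1.55 CPM, and the cell types overlapped fully. The log2 difference was 0.10 (SE 0.69, edgeR adjusted p = 0.947), and it ran from -0.34 to 1.49 over the fits without 1 library.

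**Figure D2:**
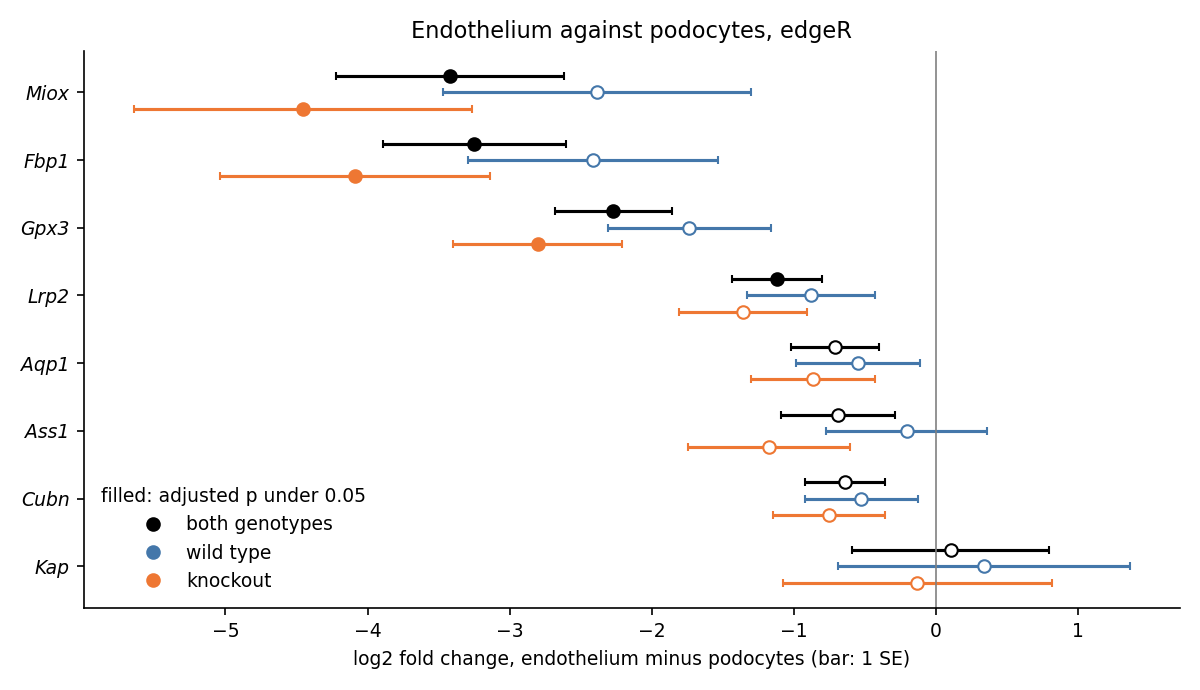
Log2 fold change of each member, endothelium minus podocytes, in both genotypes together, in wild type and in knockout. Bars are 1 SE and filled points passed edgeR's adjusted p of 0.05. Miox, Fbp1 and Gpx3 lie farthest from 0 in all 3 comparisons, and Kap lies at 0 within its SE.

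Within wild type alone, 0 of 8 members passed in edgeR (2 at an unadjusted p under 0.05, Gpx3 and Fbp1), against 8.99% of all genes tested (4.73% higher in podocytes, and 19.6% at an unadjusted p under 0.05). DESeq2 called 1 member, Gpx3, and 11% of all genes. Gpx3 was -1.74 (SE 0.57, edgeR adjusted p = 0.103), Fbp1 -2.41 (SE 0.88, adjusted p = 0.144) and Miox -2.38 (SE 1.08, adjusted p = 0.259). Over the fits without 1 library, Gpx3 ran from -2.38 to -1.29, Fbp1 from -3.04 to -1.25 and Miox from -3.48 to -1.21. Fbp1 and Miox were nearest to 0 without wild-type podocytes replicate 3, and Gpx3 without wild-type endothelium replicate 2. Gpx3 stayed at -1.74 in each of the 2 fits that left out a knockout podocyte library. A fit of only the 4 wild-type libraries called 3 members, Gpx3, Fbp1 and Miox, and 11.4% of the genes it tested. Within knockout, Gpx3 (-2.80, SE 0.60, edgeR adjusted p = 0.0130), Fbp1 (-4.09, SE 0.95, adjusted p = 0.0203) and Miox (-4.46, SE 1.19, adjusted p = 0.0385) were lower in endothelium, 3 of 8 against 10.4% of all genes (6.09% higher in podocytes). That count was 0 without knockout podocytes replicate 2 (6.32% of all genes called), 0 without knockout endothelium replicate 3 (6.56%), and 5 without knockout podocytes replicate 3 (10.6%). Miox also missed the threshold with library size only (edgeR adjusted p = 0.0731), with genes of at least 5 CPM on average (0.0689), and in a fit of only the 4 knockout libraries (0.0729), which called 2 members and 8.06% of its genes. In knockout, over the fits without 1 library, Gpx3 ran from -3.48 to -1.54, Fbp1 from -4.95 to -1.91 and Miox from -6.32 to -1.90. Lrp2 (-1.36, adjusted p = 0.0912), Ass1 (-1.17), Aqp1 (-0.87), Cubn (-0.75) and Kap (-0.13) did not pass.

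Summed over the 8 members, the level was 970.1 and 1955 CPM in wild-type endothelium, 1510.5 and 1227 CPM in knockout endothelium, 3479 and 5665 CPM in wild-type podocytes, and 11899.6 and 3093 CPM in knockout podocytes. The podocyte libraries were all above the endothelial ones, and knockout podocytes replicate 2 stood apart from its own group. As a share of the counts on complete lines, the sum ran from 0.103% (95% Wilson interval 0.101% to 0.105%) in wild-type endothelium replicate 2 to 1.18% (1.17% to 1.18%) in knockout podocytes replicate 2, intervals that cover counting error only. Mean sums were 1416 ± 422 CPM in endothelium and 6034 ± 4071 CPM in podocytes (SD, n = 4 each), or 3.79-fold on the log scale (log2 1.92, pooled SD within groups 0.82). Sums over the members are dominated by Gpx3, and without it the log2 ratio was 1.27. The cell types then overlapped: wild-type podocytes replicate 2, at 469 CPM, and knockout podocytes replicate 3, at 646 CPM, lay below knockout endothelium replicate 2, at 649 CPM.

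**Figure D3:**
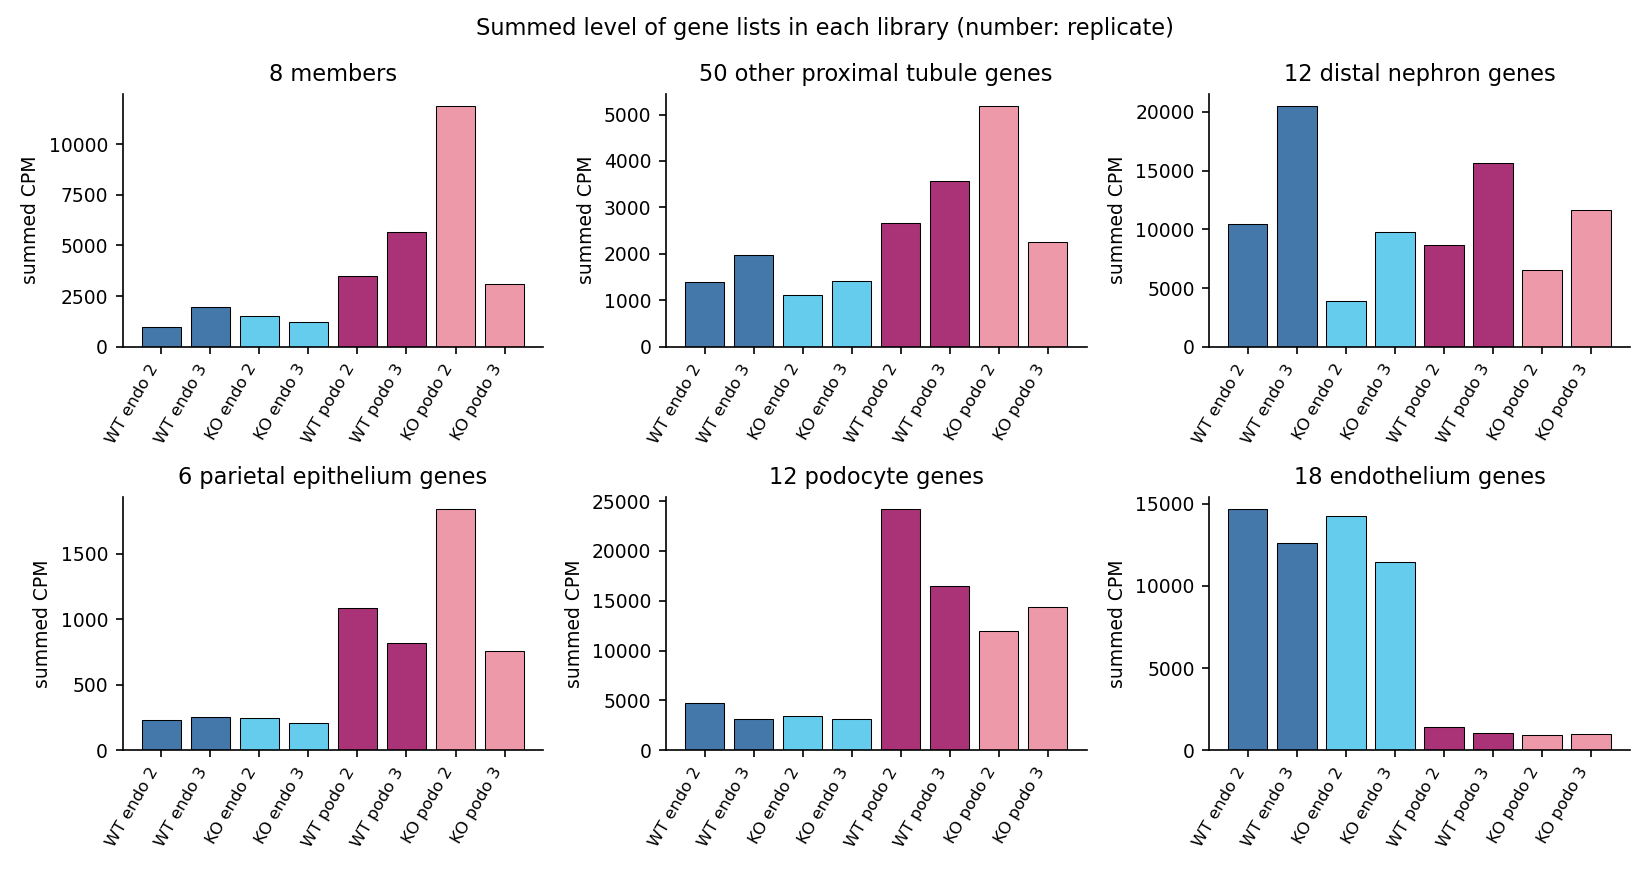
Summed CPM of the members and of 5 other gene lists in each library (bars start at 0, WT wild type, KO knockout, endo endothelium, podo podocytes, number the replicate). The members, the 50 other proximal tubule genes and the 6 parietal genes are highest in knockout podocytes replicate 2, and the 12 distal nephron genes are highest in wild-type endothelium replicate 3.

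Other gene lists were set beside the sum. Distal nephron genes (12 on complete lines, among them Umod, Calb1 and Aqp2) summed to between 3897 and 20541 CPM per library, with the lowest value in knockout endothelium replicate 2 and the highest in wild-type endothelium replicate 3. Of these, 0 differed between cell types in edgeR (1 at an unadjusted p under 0.05, and 0 in DESeq2), and their median difference was -0.10 on the log2 scale. In knockout podocytes replicate 2, the library highest for the members, the distal sum was 6511 CPM, the lowest among podocyte libraries. Within each of the 4 groups the library numbered 3 had the higher distal sum and the higher mitochondrial share of counts. Markers of the parietal epithelium of Bowman's capsule shared the cell type difference: 4 of 6 were higher in podocytes, against 11.1% of all genes tested. Their sum was 209 to 256 CPM in endothelium and 758 to 1843 CPM in podocytes, again highest in knockout podocytes replicate 2. Within wild-type podocytes the order was opposite: 1086 and 820 CPM in replicates 2 and 3, against 3479 and 5665 CPM for the members. None of the 6 was at 0 in any library, and Pax8, one of them, is also a tubule factor. Their part in the members' difference was not tested.

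The mixture of members was also compared between cell types. Counts of each of the other 7 members were set per 100 Gpx3 counts, a ratio that does not depend on library scaling. For Lrp2 this was 5.33 and 2.84 in wild-type endothelium, 5.91 and 5.54 in knockout endothelium, 1.65 and 2.24 in wild-type podocytes, and 1.95 and 2.67 in knockout podocytes. The lowest endothelial ratio lay above the highest podocyte ratio. Ass1 showed the same separation, at 0.495 to 0.792 per 100 in endothelium and 0.161 to 0.244 in podocytes. The log2 ratio was higher in endothelium by 1.17 for Lrp2 and by 1.62 for Ass1. Cubn (1.56), Kap (2.76) and Aqp1 (1.47) pointed the same way with overlap, and Miox (-1.10) and Fbp1 (-0.76) the other way. Since Gpx3 was itself higher in podocytes, any member that differed less between cell types has a higher ratio in endothelium, so these values restate the fold changes above as a description. This set of ratios was chosen after seeing the data.

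**Figure D4:**
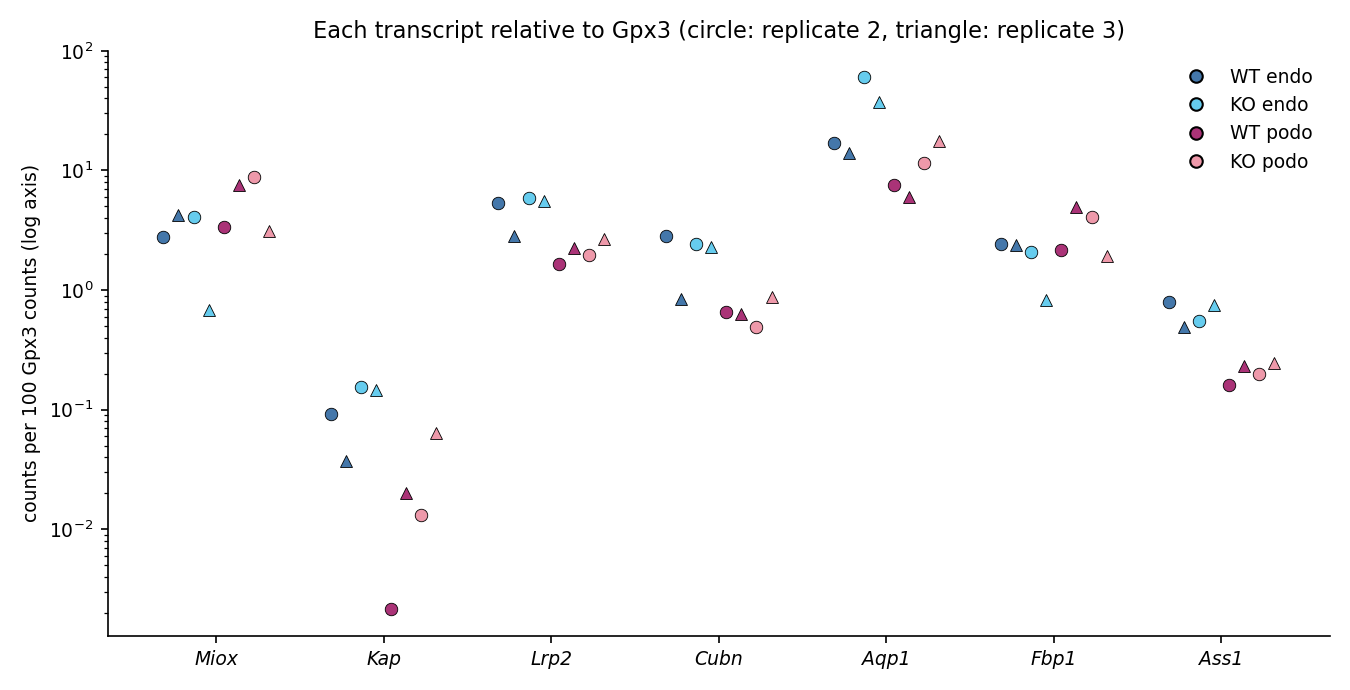
Counts of each of 7 members per 100 Gpx3 counts in each library, on a log axis (colours are the groups, circles replicate 2, triangles replicate 3). For Lrp2 and Ass1 all 4 endothelial libraries lie above all 4 podocyte libraries.

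Over the 8 libraries, members with similar patterns were Miox and Fbp1 (Pearson r of log2 CPM 0.99), Gpx3 and Fbp1 (0.96), Gpx3 and Miox (0.94) and Lrp2 and Cubn (0.91). Aqp1 had 0.75 with Lrp2 and 0.67 with Cubn, and 0.56 with Gpx3 and 0.46 with Fbp1. Kap had its highest value, 0.51, with Aqp1, then 0.32 with both Lrp2 and Cubn, and was at -0.07 with Gpx3, -0.05 with Miox and -0.06 with Fbp1. All 28 pairs share the same 8 libraries, cell types and depth, so these values only describe. The search for similar patterns took only genes with a mean of at least 5 CPM. Among those outside the members, the patterns closest to the mean of the 8 included Eci3 (0.99), Prodh2, Nox4, Met and Tmem117. Bhmt2, Habp2, Acsm2 and Mep1a (0.97 for the last) were also among them. Over all genes at that level, members included, the closest to Gpx3 alone were Acot1, Mettl7b and Glyat. For Miox they were its fellow member Fbp1, then Apom and Aadac. For Lrp2 they were Eci3 and Aadat among others, and for Aqp1 Rasa4, Tarbp1 and Erbb3. For Fbp1 they were Apom, Hao2 and Guca2b, for Cubn Notch3, Fads2 and Gsta5, for Ass1 Acy3, Khk and 0610005C13Rik, and for Kap Gmeb1, Kif18b and Kif21b.

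Other genes of the proximal tubule were taken from a list of 129, of which 50 stood on complete lines. None of the 49 solute carriers on that list did, so the transporters of the brush border were not analysed here. Of the 50, 25 were higher in podocytes, 0 were higher in endothelium and 25 did not pass (edgeR, both genotypes; 17 passed without knockout podocytes replicate 2). Their median log2 difference was -1.26, and 41 of the 50 were highest in knockout podocytes replicate 2. All 4 podocyte libraries lay above all 4 endothelial ones for 19 of them.

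Among the endocytic partners of the members, the receptor-associated protein Lrpap1 had 411 CPM in endothelium and 555 CPM in podocytes on average (log2 -0.43, SE 0.17, edgeR adjusted p = 0.115). Pdzk1, a scaffold of the brush border, was at 16.8 and 133 CPM (-2.97, adjusted p = 0.00222), and the folate receptor Folr1 at 7.77 and 71.8 CPM (-3.12, adjusted p = 0.000154). The greatest differences among the enzymes were in the acyltransferases Keg1 (-3.86, adjusted p = 0.000857) and Glyat (-3.68, adjusted p = 0.00151), then Acsm2 (-3.33) and Pter (-3.17). Gatm, which makes the creatine precursor, differed by -1.70 (adjusted p = 0.00351), and Hao2 and Sord by -2.94 and -0.97, both past the threshold. Mme, neprilysin, differed by -2.83 (adjusted p = 2.7e-05), was highest in wild-type podocytes replicate 2 and is also made by podocytes. Ggt1 (-0.18), Pcbd1 (-0.41), Dcxr (-0.08), Sardh (-0.48), Ces1f (-0.18) and Acy3 (-0.43) did not pass. The transcription factors Ppara (-0.49) and Maf (-0.82) did not pass.

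**Figure D5:**
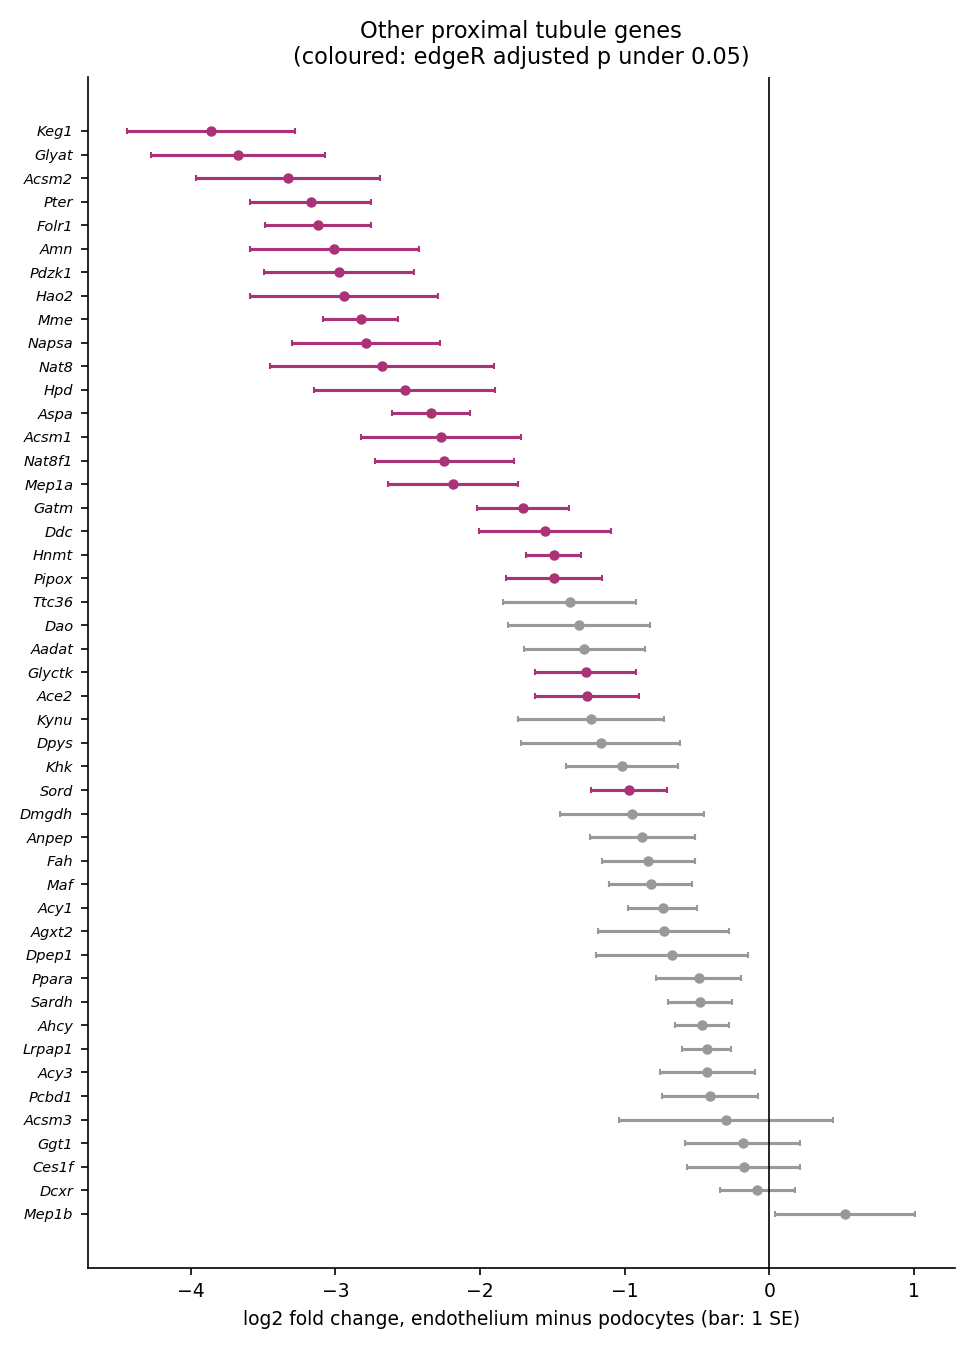
Log2 fold change, endothelium minus podocytes over both genotypes, of 47 of the 50 other proximal tubule genes (bars 1 SE, coloured where edgeR's adjusted p was under 0.05). The 23 coloured genes all lie below 0, with Keg1 at -3.86 the lowest.

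Relatives of the members gave a mixed picture. In the glutathione peroxidase family Gpx8 was higher in podocytes (-1.80, edgeR adjusted p = 8.1e-05) and the other 5 tested did not pass. Of gene partners in sugar and urea metabolism, Fbp2 (-2.44), Pcx (-1.64) and Asl (-0.75), which acts after Ass1 in arginine synthesis, were higher in podocytes, and Pck2 (0.17) did not differ past the threshold. Among aquaporins other than Aqp1, 0 of 8 passed in edgeR (1 at an unadjusted p under 0.05, and 0 in DESeq2), and those above 5 CPM were Aqp2 (-0.49), Aqp3 (-0.57), Aqp4 (-1.23) and Aqp11 (0.25). Genes of the vasa recta, where Aqp1 is known in endothelium, did not pass either, with Scin at -0.54, Fxyd6 at -0.56 and Adipor2 at 0.16. Of 7 genes raised in injured tubule, Spp1 (-1.35, adjusted p = 0.0166) and Sox9 (-0.90, adjusted p = 0.0128) were higher in podocytes, Sox9 being named after its value was seen. The other 5 did not pass, among them Clu (0.08) and Vcam1 (0.36).

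The second comparison asked whether loss of Emcn changes these transcripts within a cell type. In endothelium, 0 of 8 members passed in edgeR (1 at an unadjusted p under 0.05, Aqp1, and 0 in DESeq2). Over all genes 0.00607% passed, which was 1 gene, Emcn itself, and 5.49% had an unadjusted p under 0.05. Aqp1 was higher in knockout endothelium by 1.26 (SE 0.44, edgeR adjusted p = 0.716), and the knockout libraries, at 518 and 311 CPM, lay above the wild-type ones at 126 and 221 CPM. Kap differed by 1.0 (SE 0.99), Lrp2 by 0.21, Cubn by 0.23, Ass1 by -0.31, Gpx3 by -0.44, Miox by -1.08 and Fbp1 by -1.14, none past the threshold. The median of the 8 was -0.05 (0.00 over all genes). Of the 50 other tubule genes 0 passed in edgeR in endothelium (3 at an unadjusted p under 0.05, and 0 in DESeq2).

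In podocytes all 8 members had positive differences, knockout minus wild type. In edgeR 0 of 8 passed (1 at an unadjusted p under 0.05, Aqp1, and 0 in DESeq2). Over all genes 0.00607% were called, again Emcn alone, and 4.43% had an unadjusted p under 0.05. Aqp1 differed by 1.58 (SE 0.44, edgeR adjusted p = 0.978), Kap by 1.47 (SE 1.0), Miox by 0.99, Lrp2 by 0.69, Ass1 by 0.66, Gpx3 by 0.62, Fbp1 by 0.53 and Cubn by 0.46. In the same comparison all 12 podocyte markers were negative (median -0.59) and 5 of 6 parietal genes positive (median 0.69), with 0 called. Their part in the members' differences was not tested. The median of the 8 members was 0.68, against 0.02 over all genes. Without knockout podocytes replicate 2, 6 of the 8 turned negative, all but Aqp1 and Kap, and the median was -0.32. Of the 50 other tubule genes 0 passed in edgeR (2 at an unadjusted p under 0.05, and 0 in DESeq2), and their median moved from 0.56 to -0.46 without that library. The interaction, which tests whether the genotype difference itself depends on cell type, was called for 0 of 8 members in edgeR (0 at an unadjusted p under 0.05, and 0 in DESeq2). Over all genes 0% were called and 2.6% had an unadjusted p under 0.05, and 7 of the 8 turned direction without that library.

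Aqp1 and Kap were the 2 of 8 members whose 4 knockout libraries all lay above the 4 wild-type ones, which held for 2.23% of all genes. A contrast of knockout against wild type over both cell types was added after seeing the data, and in it Aqp1 was at 1.42 (SE 0.31, unadjusted p = 0.000994, edgeR adjusted p = 0.558) and Kap at 1.24 (SE 0.70, adjusted p = 0.567). DESeq2 gave Aqp1 an adjusted p of 0.0156, in a fit that called 0.0789% of all genes. In edgeR 0 of 8 members passed (1 at an unadjusted p under 0.05, Aqp1, and 1 in DESeq2), where 0.00607% of all genes did and 8.59% had an unadjusted p under 0.05. Kap rests on 1 to 21 counts per library, so its difference is imprecise at this depth.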

How the data were processed

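Polyadenylated RNA from 8 libraries was counted by the authors. They deposited 1 table of raw counts per gene, whole numbers on every complete line. The submitters' processing notes name mm10 and DESeq2. The aligner, counter and use of strand are not given in the sources used here. Of 22533 gene lines, 5207 (23.1%) were short and were not analysed here, because the library of each count was unclear. In 3 deposited columns these lines left empty cells, and the unit there was recorded as other, not counts, for that reason alone.

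Counts were tested in edgeR 4.0.16 (R 4.3.3) with TMM scaling, filterByExpr and 1 mean per group over all 8 libraries, and Benjamini-Hochberg adjustment over 16477 genes with a threshold of 0.05. CPM used TMM-scaled library sizes, and log2 CPM a prior count of 2. The members and lists were chosen with earlier results of these data known. The named genes are all 8 members, Emcn, the most abundant and the most different genes of each list, the listed relatives, and the genes of most similar pattern. From the injury and endothelial lists Sox9 and Cldn5 were named after their values were seen, and some genes that met the rule are not reported here. Exon lengths came from GENCODE M21 and positions and promoters from RefSeq GRCm38.p6, the same assembly as mm10. On simulated counts of 15811 genes, the cell type comparison recovered 23.8% of genes changed 2-fold, 75.0% changed 4-fold and 87.5% changed 8-fold, with 7 false calls among 121. On 15838 genes, knockout against wild type in endothelium recovered 8.75%, 52.5% and 60.0% at those sizes, with 7 false calls among 80. Each simulation changed 200 genes, whereas 3020 were called between cell types in the data. The adjusted p depends on how many genes change, so these rates need not hold for the data. Alternatives were DESeq2 1.42.0, other scalings and filters, a replicate block and each library left out.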

Additional observations from a re-analysis of the deposited data

How the results depend on the processing

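Over both genotypes, members called numbered 3 to 4 under other scalings, tools, filters and blocks, and 2 to 6 when each library was left out (2 without wild-type endothelium replicate 2, where 14.2% of all genes were called, and 6 without knockout podocytes replicate 3, where 19.2% were). Within wild type, DESeq2 called 1 and a fit of only the libraries compared called 3, with 0 to 2 when a library was left out. In knockout it was 0 to 5 when a library was left out. For knockout against wild type over both cell types DESeq2 called 1 (0.0789% of all genes). In the fits of all 8 libraries over both genotypes, 14.2% (library size only) to 26.5% (genes of at least 5 CPM on average) of all genes were called. The fit at 26.5% did not test Kap and called 3 of 7 members. With the replicate block the counts were 4 (both genotypes), 0 (wild type) and 3 (knockout), as without it. Same-numbered libraries had correlated deviations of -0.13 to 0.19 over the pairs of groups, and the labels do not say whether a number marks a shared animal or day. Over all genes the block moved the calls from 3020 to 3434 (both genotypes) and from 1709 to 2242 (knockout). With podocyte numbers swapped, an alternative chosen after seeing the data, those calls were 2912 and 1578, and the members' counts were 3, 0 and 1.

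Scaling by library size only moved the median of all genes by up to 0.33 (knockout against wild type in endothelium) and turned Kap in knockout cell types to 0.15 and Ass1 in endothelium to 0.031. Within a cell type or genotype, or over both genotypes, these log2 differences turned direction without 1 library. For cell types, Kap ran from -0.34 to 1.49 over both genotypes, -0.56 to 3.12 in wild type and -0.29 to 0.027 in knockout, and Ass1 from -0.66 to 0.48 in wild type. For genotype in endothelium, Gpx3 ran from -0.90 to 0.19 and Cubn from -0.075 to 0.60. In podocytes, Gpx3 ran from -0.65 to 1.29, Miox from -1.58 to 2.16, Lrp2 from -0.24 to 1.32, Cubn from -0.21 to 0.91, Fbp1 from -1.65 to 1.69 and Ass1 from -0.39 to 1.35. Over both cell types, knockout against wild type, 5 members turned in at least 1 such fit (Gpx3, Miox, Lrp2, Fbp1 and Ass1), and Miox also with library size only and with genes of at least 5 CPM. The interaction of Cubn, Aqp1 and Kap turned in fits without a wild-type library too. The causes were not tested. With 2 libraries per group, a fit without 1 assumes that the lone sample varies like the other groups. The counts of Kap, 1 to 21, limit what can be read of it.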
